A study of Mus musculus with 12 samples.

Results

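The cell proliferation genes described here are 10 protein-coding mouse genes used as markers of dividing cells: Mki67, Top2a, Cdk1, Ccnb1, Ccna2, Ccne2, Ccnd1, Mcm2, Mcm6 and Pcna. They were taken by gene symbol from a table of 55450 annotated genes, and all 10 were found, each in 1 row. Their levels were measured by total RNA sequencing, after removal of ribosomal RNA, in brains and livers of male mice aged 7 to 9 weeks. There were 12 libraries in 4 groups of 3: wild-type brain, Vaultrc5-/- brain, wild-type liver and Vaultrc5-/- liver. The controls carry the genotype Vaultrc5+/+ in the labels, and their titles use the word flx. Vaultrc5 encodes a vault RNA, a short non-coding RNA made by RNA polymerase III. The knockout label names no promoter or Cre driver, and the strain was not given in the sources used here.

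A cell that commits to division passes through G1, copies its DNA in S phase, and separates its chromosomes in mitosis. D-type cyclins such as Ccnd1 act in G1 and relieve the retinoblastoma brake on E2F factors, E-type cyclins start S phase, the Mcm proteins unwind DNA at origins, and cyclins A and B with Cdk1 carry the cell into mitosis. Most neurons and most hepatocytes of a young adult mouse are out of the cycle, so in these organs transcripts of mitosis are expected from a minority of cells, among them glial precursors, endothelial cells, immune cells and the few hepatocytes that divide. In a bulk sample, fewer cycling cells and less RNA per cell cannot be told apart.

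Library totals ran from 14844971 to 18567381 counts for brain samples, and from 23247449 to 27155480 for liver samples. Levels are given as CPM (counts scaled to a common library size) on 1 scale over all 12 libraries, on which 3 counts are worth 0.123 to 0.148 CPM in brain and 0.150 to 0.169 CPM in liver. Wild-type livers held 33, 39 and 48 counts of Vaultrc5 itself, and every knockout liver 0; wild-type brains held 4, 1 and 4 counts and every knockout brain 0, too few to check the brain labels well. Neuron markers (Snap25, Syt1 and Rbfox3) summed to at least 2362 CPM in every brain library and at most 34.6 CPM in every liver library. Hepatocyte markers (Alb, Ttr and Apoa1) summed to at least 48317 CPM in every liver library, and to between 0.369 and 438 CPM in brain, where Ttr is also made by the choroid plexus. Perinatal liver genes (Afp, H19, Igf2 and Gpc3) summed to 3.04 to 5.03 CPM in liver and 34.4 to 60.2 CPM in brain. Pericentral hepatocyte genes summed to 6934 to 9863 CPM in liver and 743 to 990 CPM in brain. Most of that brain sum was Glul (829 ± 79 CPM in wild-type brains, 796 ± 125 CPM in knockout brains; SD, n = 3), which astrocytes also make, and Cyp1a2 was at 0 in both brain groups.

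Per kilobase of exon (RPKM, from the same CPM), the 10 genes spanned a wide range of levels. In brain the mean over 6 libraries was 6.60 RPKM for Pcna and 5.47 RPKM for Ccnd1, then 1.50 RPKM for Ccne2, 0.583 for Mcm6, 0.503 for Mcm2, 0.286 for Ccnb1, 0.276 for Ccna2, 0.246 for Mki67, 0.168 for Top2a and 0.0565 for Cdk1. In liver the order was Ccnd1 at 10.4 RPKM, Pcna at 8.42, Mki67 at 0.987, Mcm6 at 0.986, Mcm2 at 0.665, Ccne2 at 0.531, Top2a at 0.470, Ccna2 at 0.435, Cdk1 at 0.228 and Ccnb1 at 0.167 RPKM. Ccnd1 and Pcna led in both tissues and Cdk1 was among the lowest 2. Neighbours in these orders overlapped over the 6 libraries of a tissue, except that Ccne2 in brain lay apart from Ccnd1 above it and Mcm6 below it, and Pcna in liver lay above Mki67. Exons of Ccna2, Ccnd1 and Ccne2 overlap a gene on the other strand (Exosc9, LTO1 and Ints8, in the names of the annotation), and use of strand in the counting was not given in the sources used here, so reads of such a pair may not be separated. A small nucleolar RNA gene, Gm23451, overlaps Top2a exons on the same strand.

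Knockout of Vaultrc5 was not associated with a called change in any of the 10 genes, in brain or in liver. In brain 9 of the 10 had enough counts to be tested and 0 passed an adjusted p of 0.05 (edgeR's quasi-likelihood test, Benjamini-Hochberg adjustment over 18075 genes), where 0% of all genes passed. In liver all 10 were tested and 0 passed, where 0% of 15329 genes passed. At an unadjusted p under 0.05, edgeR held 122 genes in brain and 536 in liver, and 0 of the 10 genes in either tissue; DESeq2 called 0 genes in brain and 10 in liver, 0 of them among the 10. With replicate number as a block, edgeR called 0 genes in brain and 2 in liver, again 0 of the 10. The levels of the 10 genes in knockout and wild-type libraries overlapped for every gene in both tissues, while 4.23% of the genes tested in brain and 9.62% of those tested in liver had groups that did not overlap.

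**Figure D1:**
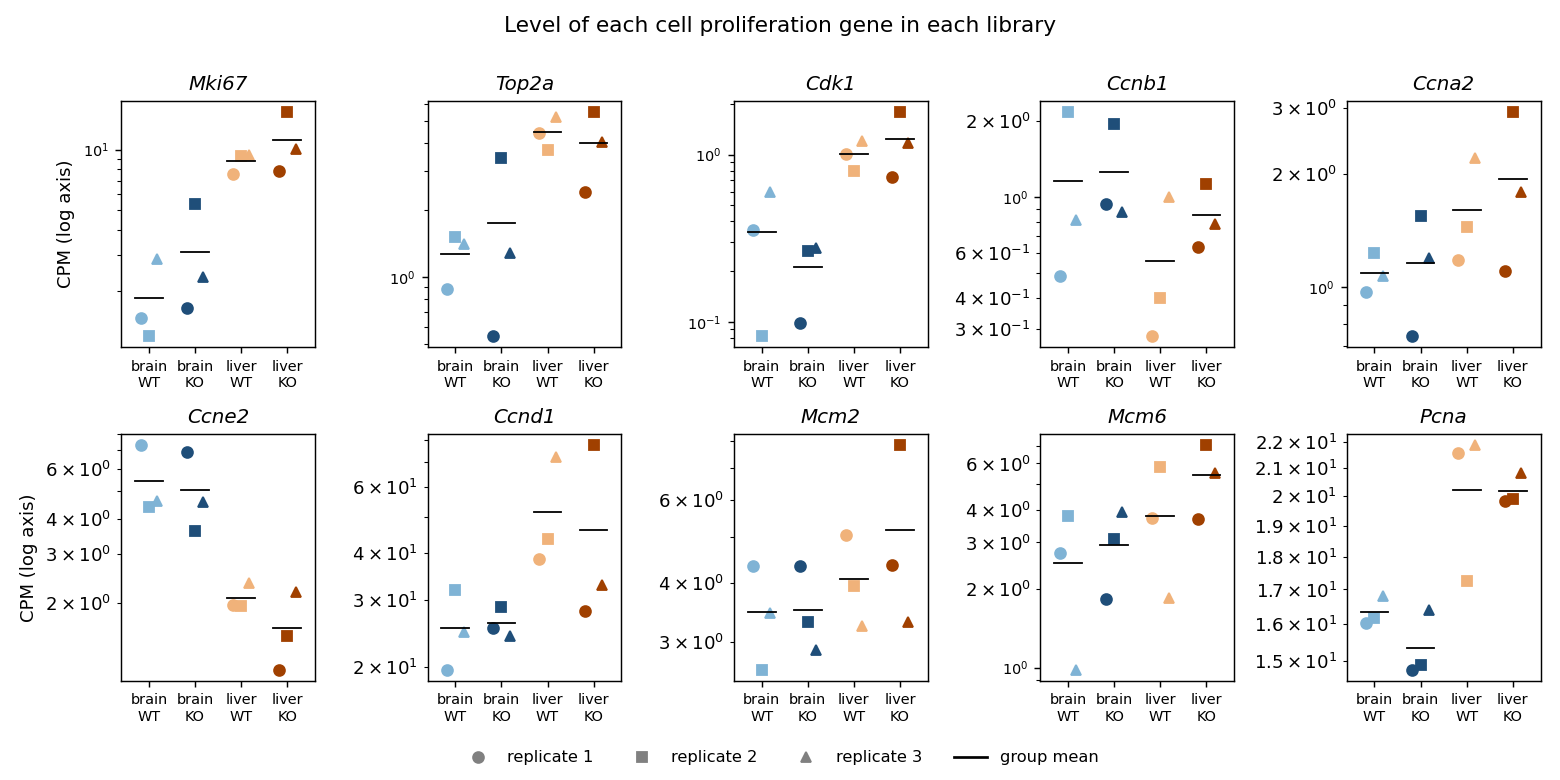
Level of each of the 10 genes in each library, in CPM on a log axis, by tissue and genotype (WT, wild type; KO, Vaultrc5-/-); the symbol gives the replicate number and the line is the mean of 3 libraries. Mki67 lies between 1.19 and 5.38 CPM in brain and between 7.60 and 15.4 CPM in liver, and the square of the knockout liver group is the highest liver value for 8 of the 10 genes.

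The genes of mitosis come first. Mki67 (chromosome 7, 135689784 to 135716361, minus strand, GRCm38) encodes the protein that coats mitotic chromosomes and is the usual marker of cycling cells, and Top2a (chromosome 11, 98992943 to 99024189, minus strand) encodes the topoisomerase that untangles sister chromatids. Cdk1 (chromosome 10, 69335146 to 69352938, minus strand) is the kinase of mitotic entry, and Ccnb1 (chromosome 13, 100778650 to 100786570, minus strand) and Ccna2 (chromosome 3, 36564865 to 36572150, minus strand) are cyclins that bind it. Promoters of such genes are known to carry CCAAT boxes, bound by NF-Y, and the cell cycle homology region TTTGAA, bound by the DREAM and MuvB complexes; genes of S phase are known for E2F sites such as TTTCGCGC and TTTGGCGC. The windows of 4 genes are shown because these elements recur in them; each runs from 250 bases before to 50 after the RefSeq start (GRCm38.p6), 5′ to 3′ on the gene's strand, with any of these 4 motifs, or its reverse complement, in capitals.

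Mki67, chr7:135716330-135716629: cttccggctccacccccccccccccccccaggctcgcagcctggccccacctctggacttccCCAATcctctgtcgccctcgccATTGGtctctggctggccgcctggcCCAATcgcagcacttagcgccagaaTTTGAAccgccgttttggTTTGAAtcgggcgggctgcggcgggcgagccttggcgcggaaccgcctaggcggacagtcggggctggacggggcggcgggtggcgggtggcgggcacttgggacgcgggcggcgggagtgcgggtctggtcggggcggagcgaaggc
Top2a, chr11:99024140-99024439: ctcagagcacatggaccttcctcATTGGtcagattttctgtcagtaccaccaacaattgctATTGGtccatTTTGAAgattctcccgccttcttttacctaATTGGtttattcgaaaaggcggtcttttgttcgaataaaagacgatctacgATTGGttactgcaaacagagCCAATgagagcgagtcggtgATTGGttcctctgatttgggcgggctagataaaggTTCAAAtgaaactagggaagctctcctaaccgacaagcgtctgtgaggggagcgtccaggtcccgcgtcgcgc
Cdk1, chr10:69352863-69353162: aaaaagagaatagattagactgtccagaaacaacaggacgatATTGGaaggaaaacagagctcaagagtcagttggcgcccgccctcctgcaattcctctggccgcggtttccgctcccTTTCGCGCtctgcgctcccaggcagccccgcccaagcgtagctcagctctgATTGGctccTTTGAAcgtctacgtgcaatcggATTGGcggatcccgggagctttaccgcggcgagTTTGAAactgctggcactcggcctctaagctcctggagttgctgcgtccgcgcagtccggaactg
Mcm6, chr1:128359656-128359955: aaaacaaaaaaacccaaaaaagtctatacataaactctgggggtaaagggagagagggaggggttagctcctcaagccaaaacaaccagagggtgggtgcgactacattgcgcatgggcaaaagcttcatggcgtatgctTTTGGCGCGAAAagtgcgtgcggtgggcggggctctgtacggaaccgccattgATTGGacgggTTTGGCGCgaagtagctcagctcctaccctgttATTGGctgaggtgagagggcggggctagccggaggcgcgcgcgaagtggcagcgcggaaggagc

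RefSeq windows were matched for 7 of the 10 genes (Mki67, Top2a, Cdk1, Ccnb1, Mcm2, Mcm6 and Pcna). CCAAT, on either strand, was in 7 of these 7 windows and in 37.4% of 32851 mouse windows of the same length. TTTGAA was in 4 of the 7 (Mki67, Top2a, Cdk1 and Mcm2) and in 17.9% of all windows. TTTCGCGC was in 2 (Cdk1 and Mcm6) and in 0.323% of all windows, and TTTGGCGC was in 1 (Mcm6) and in 0.514% of all windows. Top2a had the most CCAAT matches, 6, and in Mcm6 a match of TTTGGCGC overlapped one of TTTCGCGC on the other strand. A match describes letters and not binding.

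Mki67 was at 1.46, 1.19 and 2.86 CPM in the wild-type brains and at 1.63, 5.38 and 2.34 CPM in the knockout brains (replicates 1, 2 and 3 in order, as throughout). Knockout replicate 2 was the highest brain library, and the other knockout libraries lay inside the wild-type range. The log2 fold change was 0.75 ± 0.54 (SE; adjusted p = 1.00, edgeR), and it was 0.11 without knockout replicate 2. In liver Mki67 was at 7.60, 9.32 and 9.39 CPM in the wild type and at 7.84, 15.4 and 10.0 CPM in the knockout. Again knockout replicate 2 was the highest and the groups overlapped (log2 fold change 0.35 ± 0.25, SE; adjusted p = 0.992, edgeR); without that library the value was 0.03. Taken by replicate number, the knockout liver was the higher in 3 of 3 pairs, and the fit with a replicate block gave 0.31 ± 0.17 (SE; adjusted p = 0.815, edgeR).

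Top2a was at 0.886, 1.52 and 1.41 CPM in wild-type brain and at 0.544, 3.44 and 1.29 CPM in knockout brain. The knockout brains held both the lowest and the highest value (log2 fold change 0.46 ± 0.63, SE), and the sign turned to -0.47 without knockout replicate 2. In liver it was at 4.45, 3.74 and 5.24 CPM in the wild type and at 2.42, 5.52 and 4.04 CPM in the knockout, and the knockout libraries again spanned the whole range (-0.15 ± 0.31, SE). Cdk1 was too rare in brain to test between genotypes: wild-type libraries held 8, 2 and 14 counts, and knockout libraries 2, 6 and 6. In liver it was at 1.01, 0.797 and 1.21 CPM in the wild type and at 0.737, 1.80 and 1.18 CPM in the knockout, so that the lowest and the highest library were both knockout (log2 fold change 0.31 ± 0.40, SE).

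Ccnb1 was at 0.487, 2.17 and 0.812 CPM in wild-type brain and at 0.939, 1.94 and 0.873 CPM in knockout brain. Replicate 2 was the highest of its group in both genotypes (log2 fold change 0.10 ± 0.61, SE). Wild-type livers had 0.282, 0.399 and 0.996 CPM of it, and knockout livers 0.632, 1.13 and 0.785 CPM. Its log2 fold change in liver, 0.60 ± 0.53 (SE), had an adjusted p of 0.992 (edgeR) and ran from 0.29 without wild-type replicate 1 to 1.30 without wild-type replicate 3. Ccna2 ranged from 0.742 to 1.54 CPM over the 6 brain libraries and from 1.11 to 2.93 CPM over the 6 liver libraries. In each tissue its lowest library was knockout replicate 1 and its highest knockout replicate 2, and the log2 fold changes were 0.08 ± 0.33 in brain and 0.28 ± 0.42 in liver (SE).

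The other 2 cyclins act earlier, in G1 and at the start of S phase. Ccnd1 (chromosome 7, 144929931 to 144939925, minus strand), the cyclin D1 gene, is induced by growth factor signalling. Wild-type brains had 19.7, 31.9 and 24.7 CPM of it and knockout brains 25.3, 28.9 and 24.2 CPM, so the knockout libraries lay inside the wild-type range (log2 fold change 0.03 ± 0.18, SE). In liver Ccnd1 was at 38.5, 43.7 and 72.0 CPM in the wild type and at 28.1, 77.3 and 33.0 CPM in the knockout. Wild-type replicate 3 and knockout replicate 2 stood above the other livers, and the log2 fold change was -0.14 ± 0.48 (SE), or -0.75 without knockout replicate 2. Ccne2 (chromosome 4, 11191351 to 11204779, plus strand) encodes cyclin E2, a partner of Cdk2. It was at 7.31, 4.39 and 4.62 CPM in wild-type brain and at 6.92, 3.62 and 4.59 CPM in knockout brain, with replicate 1 highest in both genotypes (-0.12 ± 0.31, SE). Wild-type livers had 1.97, 1.94 and 2.36 CPM, and knockout livers 1.16, 1.52 and 2.19 CPM (-0.36 ± 0.30, SE; adjusted p = 0.992, edgeR). By replicate number the knockout liver was the lower in 3 of 3 pairs, with a blocked value of -0.38 ± 0.27 (SE; adjusted p = 0.843, edgeR); the unblocked value was -0.15 without knockout replicate 1 and -0.64 without knockout replicate 3.

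Among the replication genes Pcna varied least. Pcna (chromosome 2, 132249162 to 132253314, minus strand) encodes the sliding clamp of DNA polymerase and also serves DNA repair, which does not need a dividing cell. It was at 16.0, 16.2 and 16.8 CPM in wild-type brain and at 14.8, 14.9 and 16.4 CPM in knockout brain (log2 fold change -0.10 ± 0.10, SE). In liver it was at 21.6, 17.2 and 21.9 CPM in the wild type and at 19.8, 19.9 and 20.8 CPM in the knockout (0.01 ± 0.12, SE), the smallest standard error of the 10 genes there. Pcna had counts that were not whole in 6 libraries, as estimated counts can be where a read fits several places; its pseudogene Pcna-ps2 had at most 6.11 counts in any library.

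Mcm2 (chromosome 6, 88883474 to 88898780, minus strand) and Mcm6 (chromosome 1, 128331590 to 128359664, minus strand) encode subunits of the same replicative helicase. Mcm2 was at 4.34, 2.63 and 3.46 CPM in wild-type brain and at 4.35, 3.31 and 2.89 CPM in knockout brain (0.00 ± 0.26, SE). In liver it was at 5.07, 3.94 and 3.25 CPM in the wild type and at 4.37, 7.83 and 3.31 CPM in the knockout (0.35 ± 0.34, SE), with knockout replicate 2 alone above the wild-type range; without it the value was -0.09. Mcm6 was at 2.75, 3.78 and 0.983 CPM in wild-type brain and at 1.83, 3.09 and 3.90 CPM in knockout brain (0.23 ± 0.50, SE). In liver Mcm6 was at 3.72, 5.83 and 1.84 CPM in the wild type and at 3.68, 7.04 and 5.50 CPM in the knockout (0.52 ± 0.43, SE; 0.19 without wild-type replicate 3 and 0.97 without wild-type replicate 2). Wild-type replicate 3 was the lowest library for Mcm6 in both tissues.

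**Figure D2:**
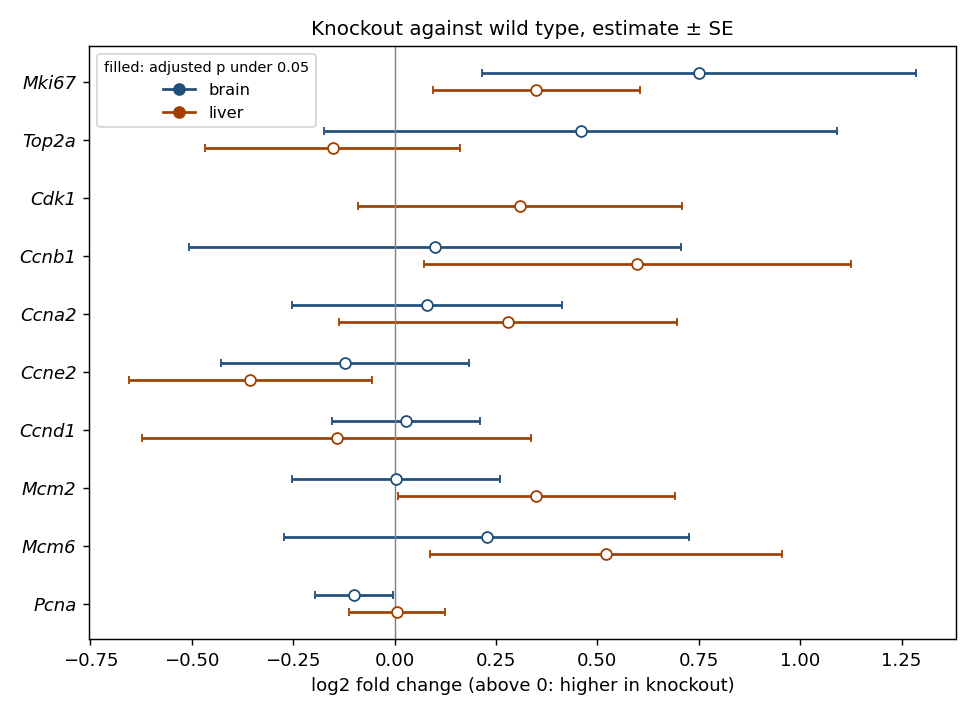
Estimated log2 fold change of each gene, knockout against wild type, in brain and in liver, with bars of 1 standard error; open points did not pass an adjusted p of 0.05, and Cdk1 in brain was not tested. Every point is open, from -0.36 for Ccne2 in liver to 0.75 for Mki67 in brain.

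As a group, the genes tested had a median log2 fold change of 0.08 in brain (7 above 0 and 2 below), where the median of all genes was -0.01, and of 0.29 in liver (7 above 0 and 3 below), where it was 0.01. Both medians moved with single libraries: without knockout replicate 2 they were -0.04 in brain and -0.08 in liver, and without knockout replicate 1 they were 0.27 and 0.52. The brain median was also 0.01 without wild-type replicate 3, 0.14 without wild-type replicate 1 and 0.23 without wild-type replicate 2, and the liver median 0.18 without wild-type replicate 1 or 2. In liver knockout replicate 2 was the highest of 6 for 8 of the 10 genes, the exceptions being Ccne2 and Pcna, for 28 of 41 other mitosis genes, 11 of 28 other replication genes, 5 of 15 G1 genes (wild-type replicate 3 was highest for 7) and 3 of 8 inhibitors, and for 21.1% of all genes tested in liver. The same library had the highest level of all 6 microglia and Kupffer cell markers, with a sum of 487 CPM against 201 to 272 CPM in the other livers. Its lymphocyte marker sum was 40.2 CPM against 19.4 to 26.8 CPM, and its hepatocyte marker sum, 48317 CPM, was the lowest of the livers. In brain, knockout replicate 2 was highest for 3 of the 10 genes, 13 of 41 mitosis genes, 2 of 28 replication genes, 2 of 15 G1 genes and 1 of 8 inhibitors, and for 13.3% of all genes tested, with a macrophage marker sum of 83.0 CPM, against 48.5 to 78.3 CPM in the other brains. The part of these cell types in the levels of the 10 genes was not tested.

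The effect of the knockout was not shown to differ between the tissues for any of the 10 genes. Over all 12 libraries 0 of the 10 passed the interaction test, where 0% of 20141 genes passed (edgeR; 489 genes at an unadjusted p under 0.05, 0 of them among the 10; 1 gene by DESeq2 and 2 with a replicate block, 0 of them among the 10). The liver effect minus the brain effect, in log2 units, ran from -0.64 ± 0.74 for Top2a to 0.48 ± 0.87 for Ccnb1 (SE) among the other 9 genes. Cdk1 (0.96 ± 0.85) entered this fit through its liver counts and is too rare in brain for its value to bear on the comparison.

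Other cell cycle genes gave the same counts between genotypes. Of 41 mitosis genes, 28 replication genes, 15 genes of G1 and the Rb-E2F system, and 8 inhibitors of the cycle, 27, 24, 14 and 6 were tested in brain and 32, 25, 15 and 6 in liver, and 0 passed in either tissue. The smallest unadjusted p in each list was as follows. Among the mitosis genes these were Ccnb2, a second cyclin B, in brain (0.299 ± 0.075 CPM in the wild type and 0.607 ± 0.108 in the knockout, SD, n = 3; log2 fold change 1.00 ± 0.37, SE; adjusted p = 1.00, edgeR) and Spc25, a kinetochore subunit, in liver (4.55 ± 0.92 and 2.94 ± 0.42 CPM, SD, n = 3; -0.62 ± 0.22, SE; adjusted p = 0.992, edgeR). Mcm5, a helicase subunit beside Mcm2 and Mcm6, was the replication gene in both tissues, at 0.33 ± 0.20 in brain and 0.64 ± 0.26 in liver (log2 fold change, SE). E2f8, an E2F repressor known for its part in hepatocyte ploidy, led the G1 list in liver at 1.12 ± 0.60: the wild-type livers lay between 4.44 and 5.19 CPM and the knockout livers between 3.03 and 18.7 CPM, on either side of them. E2f2 led in brain at -0.52 ± 0.33. The inhibitors were Cdkn1c in brain (-0.37 ± 0.20) and Cdkn1a, the p53 target p21, in liver (0.63 ± 0.49).

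Brain and liver differed for some of the 10 genes in each genotype, and these 2 comparisons share no library. In the wild type 5 of 10 passed an adjusted p of 0.05 in edgeR, where 78.6% of 18850 genes passed; 1 was higher in brain (43.9% of all genes) and 4 lower (34.7%). In the knockout 5 of 10 passed, where 78.7% of 18785 genes passed, again 1 higher in brain (43.5%) and 4 lower (35.2%). Mki67 was called lower in brain, and Ccne2 higher, in both genotypes. Cdk1, also called lower in both, had too few counts to be tested within brain and entered these comparisons through its liver counts, so that its calls are a description; without it 4 of the other 9 genes passed in each genotype. The median log2 fold change of the 10, brain against liver, was -0.57 in the wild type and -0.79 in the knockout, against 0.21 for all genes in each. The knockout median was -0.35 without liver knockout replicate 2 and -1.09 without liver knockout replicate 1, and the wild-type median -0.90 without brain replicate 2. Brain and liver levels did not overlap for 6 of the 10 genes in the wild type and for 4 in the knockout, as for 82.4% of all genes in each.

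The scale between the 2 tissues depends on the normalization. With library totals in place of TMM factors, the median of all genes moved from 0.21 to 1.05 in the wild type and from 0.21 to 1.08 in the knockout. The median of the 10 turned to 0.26 and 0.10, and the calls among the 10 became 3 higher and 2 lower in the wild type, where 61.7% and 21.2% of all genes were called, and 3 higher and 1 lower in the knockout, where the shares were 62.1% and 20.6%. Values relative to the median of all genes, which differed little between the scalings, are given below for the genes that were called. Under library totals Pcna turned from lower to higher in brain in both genotypes (wild type 0.54, adjusted p = 0.00776; knockout 0.47, adjusted p = 0.00551; edgeR), and Ccnb1 was called higher in brain in both.

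**Figure D3:**
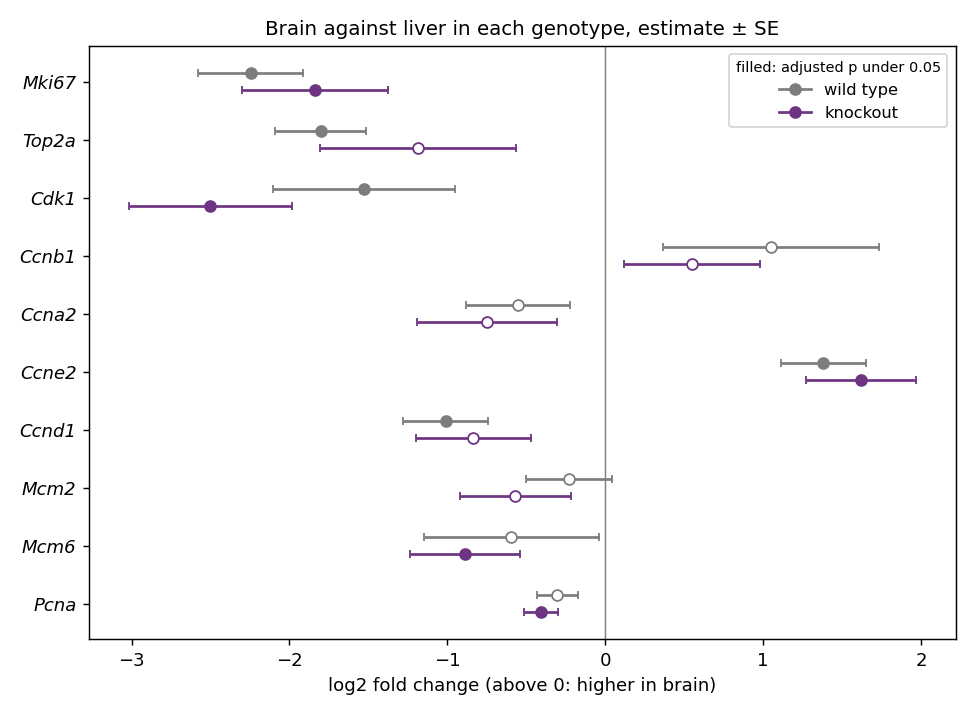
Estimated log2 fold change of each gene, brain against liver, in wild-type and in knockout mice, with bars of 1 standard error; filled points passed an adjusted p of 0.05, and values above 0 are higher in brain on the TMM scale. Mki67, Cdk1 and Ccne2 are filled in both genotypes; the 3 genes furthest left are Mki67, Top2a and Cdk1, and Ccne2 and Ccnb1 lie to the right of 0.

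Mki67 was 4.74-fold lower in brain in the wild type (1.84 ± 0.90 against 8.77 ± 1.01 CPM, SD, n = 3; log2 fold change -2.25 ± 0.33, SE; adjusted p = 0.000434, edgeR). In the knockout it was 3.57-fold lower (3.12 ± 1.99 against 11.1 ± 3.9 CPM, SD, n = 3; -1.84 ± 0.46, SE; adjusted p = 0.00741, edgeR). Relative to the median of all genes these are -2.46 and -2.04, and under library totals the knockout value was -0.96 and did not pass. Without brain knockout replicate 2, the highest of the brains, the knockout value was -2.51. On the TMM scale every brain library lay below every liver library. Under library totals they overlapped, with brain knockout replicate 2 at 7.09 CPM and wild-type liver replicate 1 at 5.71 CPM. Top2a was lower in brain by 3.49-fold in the wild type (-1.80 ± 0.29, SE; adjusted p = 0.000625, edgeR), with -2.01 relative to the median of all genes. In the knockout, where brain replicate 2 reached 3.44 CPM, the difference did not pass (-1.19 ± 0.62, SE; adjusted p = 0.115, edgeR). It passed without that library (-2.14, adjusted p = 0.0115, edgeR) and with a replicate block (-1.42, adjusted p = 0.0143), and not without brain replicate 1, where it was -0.75, nor under library totals, where it was -0.31.

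Cdk1 was at 0.345 ± 0.258 CPM in wild-type brain and 1.01 ± 0.20 CPM in wild-type liver (SD, n = 3; log2 fold change -1.53 ± 0.57, SE; adjusted p = 0.0399, edgeR), and at 0.213 ± 0.099 and 1.24 ± 0.54 CPM in the knockout tissues (-2.50 ± 0.52, SE; adjusted p = 0.00278). Both values rest on brain counts of 2 to 14 per library and give no firm fold; relative to the median of all genes they are -1.74 and -2.71. In the knockout Cdk1 could be tested in 4 of the 6 fits that leave out a library. The wild-type call was lost under library totals (-0.69) and in 5 of the 6 fits that leave out a library, in all but the fit without wild-type brain replicate 3, with values from -2.24 to -1.12. Ccnb1 was the mitotic gene with the opposite sign: 1.16 ± 0.90 CPM in wild-type brain and 0.559 ± 0.383 CPM in wild-type liver (SD, n = 3), with a difference of 1.05 ± 0.68 on the log2 scale (SE) that did not pass (adjusted p = 0.191, edgeR), and 0.55 ± 0.43 in the knockout. Leaving out brain replicate 2 took these values to 0.16 and 0.06, and over all such fits they reached 1.74 and 0.78. Ccna2 did not pass in either genotype (-0.55 ± 0.33 and -0.75 ± 0.44, SE), with values from -0.74 to -0.28 and from -1.06 to -0.35 when 1 library was left out.

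Ccne2 was the 1 gene of the 10 called higher in brain: 5.44 ± 1.62 against 2.09 ± 0.23 CPM in the wild type (SD, n = 3; 2.61-fold; log2 fold change 1.38 ± 0.27, SE; adjusted p = 0.00190, edgeR) and 5.04 ± 1.70 against 1.62 ± 0.52 CPM in the knockout (3.07-fold; 1.62 ± 0.35, SE; adjusted p = 0.00351). Its values relative to the median of all genes were 1.17 and 1.41. Every brain library lay above every liver library. Ccnd1 was 2.01-fold lower in brain in the wild type (25.4 ± 6.2 against 51.4 ± 18.01 CPM, SD, n = 3; -1.01 ± 0.27, SE; adjusted p = 0.00948, edgeR), a call that library totals removed (-0.18); relative to the median of all genes it was -1.22. In the knockout the difference was -0.83 ± 0.37 (SE; adjusted p = 0.0697, edgeR). It passed by DESeq2 and without liver knockout replicate 1, where it was -1.12, while it was -0.26 without liver knockout replicate 2 and 0.06 under library totals.

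Pcna showed the smallest called difference. Its brain and liver libraries did not overlap in either genotype, and the log2 fold change was -0.30 ± 0.13 in the wild type (SE; adjusted p = 0.0641, edgeR) and -0.41 ± 0.11 in the knockout (SE; adjusted p = 0.00896), of which the sign depends on the normalization as given above; relative to the median of all genes these are -0.51 and -0.61. In the knockout Mcm6 was called lower in brain than in liver (2.94 ± 1.04 against 5.41 ± 1.68 CPM, SD, n = 3). The log2 fold change was -0.89 ± 0.35 (SE, adjusted p = 0.0474, edgeR), or -1.10 relative to the median of all genes. That call was lost under library totals (-0.01) and in 4 of the 6 fits that leave out a library (without liver knockout replicate 2 or 3, or brain knockout replicate 1 or 2; values over the 6 from -1.16 to -0.63). Mcm6 in the wild type (-0.60 ± 0.55) and Mcm2 in both genotypes (-0.23 ± 0.27 and -0.57 ± 0.35, SE) did not pass. Leaving out 1 library moved these values between -1.09 and -0.16 for Mcm6, between -0.43 and -0.06 for wild-type Mcm2 and between -0.83 and -0.17 for knockout Mcm2.

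Cell type markers differed between the tissues over the same libraries. Endothelial markers summed to 46.4 to 57.7 CPM in brain and 172 to 215 CPM in liver, microglia and Kupffer cell markers to 48.5 to 83.0 and 201 to 487 CPM, erythroid precursor markers to 3.26 to 5.75 and 87.6 to 127 CPM, and lymphocyte markers to 2.83 to 5.69 and 19.4 to 40.2 CPM. Markers of oligodendrocyte precursors, the main dividing cells of the adult brain, summed to 65.1 to 100.03 CPM in brain and 10.4 to 14.0 CPM in liver, and neuroblast markers to 103 to 186 CPM and 4.10 to 19.3 CPM. The Kupffer cell marker Clec4f was at 0 in both brain groups, Cd5l in knockout brain, the precursor marker Neu4 and the neuroblast marker Igfbpl1 in both liver groups, Neurod1 in knockout liver and Hemgn in wild-type liver. Their part in the differences of the 10 genes was not tested.

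The other cell cycle genes split both ways between wild-type brain and liver. Of 30 mitosis genes tested of 41, 5 were called higher in brain and 14 lower, with a median log2 fold change of -0.84. Of 25 replication genes of 28, 4 were higher and 12 lower (median -0.55); of the 15 G1 and Rb-E2F genes, 4 were higher and 7 lower (median -0.75); and of 6 inhibitors of 8, 3 were higher and 1 lower (median 1.07). Over all genes 43.9% were called higher and 34.7% lower, with a median of 0.21. In the knockout the counts were 3 higher and 10 lower of 31, 5 and 12 of 25, 4 and 8 of 15, and 4 and 1 of 6, beside 43.5% higher and 35.2% lower over all genes. Under library totals the wild-type counts became 9 higher and 5 lower, 11 and 8, 5 and 5, and 5 and 1, against 61.7% higher and 21.2% lower and a median of 1.05 over all genes. The knockout counts became 7 higher and 4 lower, 11 and 7, 8 and 4, and 5 and 1, beside 62.1% and 20.6% over all genes, so that more mitosis, replication and G1 genes were called higher than lower on that scale. List genes that are rare in brain, such as Spc25, Cks2 and Tk1, entered these counts through their liver libraries, where they are higher. The counts of genes called lower and the medians of these lists are therefore a description.

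**Figure D4:**
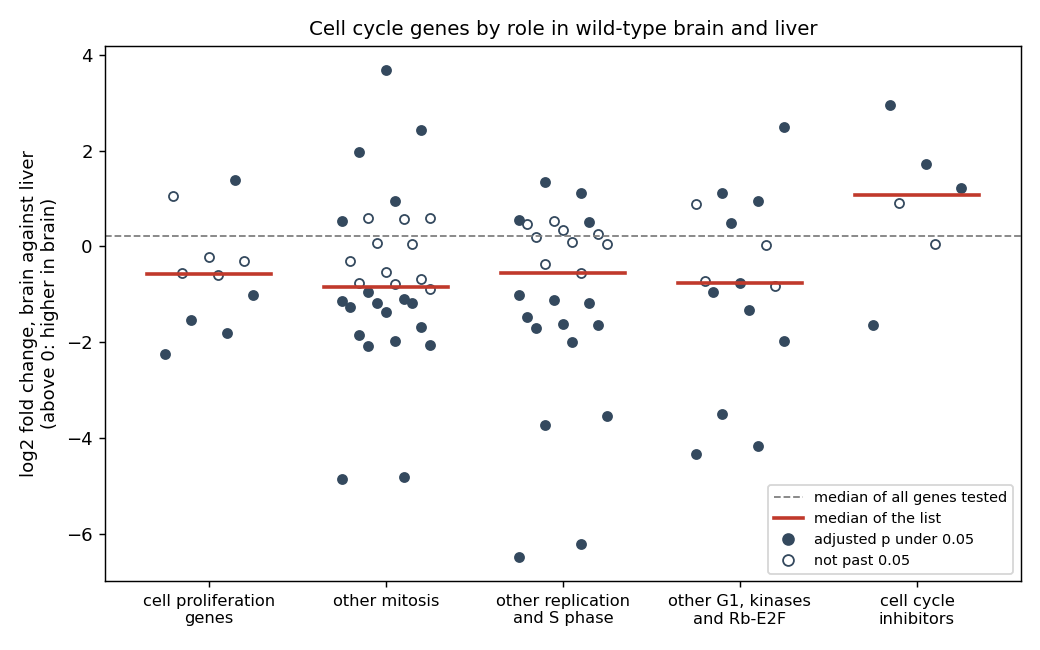
Log2 fold change, brain against liver in wild-type mice on the TMM scale, of the 10 genes and of 4 lists of other cell cycle genes; each point is a gene, filled where its adjusted p is under 0.05, with the list's median in red and the median of all genes tested (0.21) dashed. The medians of the 10 genes (-0.57) and of the mitosis, replication and G1 lists lie below the dashed line, and that of the inhibitors (1.07) above it.

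The mitosis genes with the largest called differences toward brain were Anln (25.1 ± 16.7 CPM in wild-type brain and 1.97 ± 0.08 in liver, SD, n = 3; log2 fold change 3.68), a scaffold of the cytokinetic ring that myelinating oligodendrocytes also make, and Racgap1 (6.87 ± 1.37 and 1.27 ± 0.53 CPM; 2.43), which builds the central spindle. Toward liver they were Cks2, a small Cdk-binding protein (0.299 ± 0.222 and 8.85 ± 2.21 CPM), and Spc25 (0.155 ± 0.060 and 4.55 ± 0.92 CPM), whose brain levels are a few counts, so no fold is given. Among the replication genes, Orc6 of the origin complex (log2 fold change 1.35) and Lig1, the ligase of Okazaki fragments (1.12), were higher in brain. Mcm10, which loads polymerase alpha, was at 0.930 ± 0.308 CPM in brain and 69.0 ± 9.4 CPM in liver (SD, n = 3; -6.20 ± 0.23, SE; adjusted p = 2.56e-07, edgeR), and Tk1, a thymidine kinase of S phase, was at 0.185 ± 0.173 and 17.1 ± 2.5 CPM, again with a few counts in brain.

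In the G1 list Ccne1, the other E-type cyclin, was higher in brain as Ccne2 was (6.67 ± 1.21 and 1.19 ± 0.60 CPM, SD, n = 3; log2 fold change 2.48), and so was Ccnd2 (54.7 ± 18.4 and 25.4 ± 3.3 CPM; 1.11), a D-type cyclin whose difference was opposite to that of Ccnd1. Cdk6, a kinase partner of both D-type cyclins, was at 4.66 ± 1.39 CPM in brain and 93.7 ± 10.2 CPM in liver (-4.32), and E2f8 at 0.269 ± 0.149 and 4.92 ± 0.42 CPM, with a few counts per brain library, so no fold is given. Of the inhibitors, Cdkn2d (10.7 ± 1.8 and 1.39 ± 0.16 CPM; 2.94) and Cdkn1a (7.13 ± 0.47 and 2.18 ± 0.94 CPM; 1.72) were higher in brain and Cdkn2c (1.24 ± 0.38 and 3.93 ± 0.36 CPM; -1.65) lower. These named genes kept their sign under library totals.

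The genes whose levels followed Mki67 most closely within a tissue were on none of the cell cycle lists. By Pearson r of log2(CPM + 1) over the 6 brain libraries, among 15974 genes, they were Dnah2, an axonemal dynein (r = 0.980), Jak2, a cytokine receptor kinase (0.968), and Gm37069, a predicted gene (0.964). Over the 6 liver libraries, among 13929 genes, they included Mt2, a metallothionein that ranged from 1.07 to 32.6 CPM (r = 0.994), and Fkbp9, a prolyl isomerase (0.989). These 5 genes were highest, each in its tissue, in knockout replicate 2, the library that is also highest for Mki67, and with 6 points and this many genes such values describe these libraries.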

How the data were processed

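The deposited table holds expected counts per gene: 5.06% to 5.71% of its values per library are not whole, per the file's values. Reads were trimmed with cutadapt, aligned with STAR and referred to mm10, per the submitters' processing notes; the counting tool, versions and use of strand are not given in the sources used here. The expected counts were rounded and tested with edgeR 4.0.16 in R 4.3.3 (TMM, filterByExpr with a minimum count of 10 and total of 15, robust quasi-likelihood F-test), each comparison on its own 6 libraries, the interaction on all 12. The 0.05 threshold applied to Benjamini-Hochberg adjusted p over all genes tested. DESeq2 1.42.0, other scalings and filters, a replicate block and leaving out each library were alternatives. The main fits of the genotypes in brain, of the genotypes in liver and of the wild-type tissues were also run on simulated data. The outcome is not given here. RPKM used exon lengths of GENCODE M21, and promoter windows came from RefSeq.

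The 10 genes, the other gene lists and the tests were chosen with earlier results of these data known. The text names all 10 genes; from each other cell cycle list, the gene with the smallest unadjusted p where none was called between genotypes, and the 2 called genes per direction with the largest change between wild-type tissues; and the 3 genes most like Mki67 per tissue, among genes with a mean of at least 1 CPM, of which 1 is not reported here. No label says that libraries of a group came from separate mice, so p-values measure only the spread between these libraries, which differed by more than counting noise. In liver, same-numbered knockout and wild-type libraries deviated together (r = 0.33, 0.34 and 0.39 over 13659 genes). In brain, numbers 1 and 2 did so more strongly and number 3 did not (r = 0.75, 0.71 and -0.04 over 15652 genes). The numbers may therefore pair those libraries, by the data alone. The values in the text are from the fits without a block unless the block is named, and those fits ignore such pairs. At an unadjusted p under 0.05 (edgeR), the brain fit held 122 genes without the block and 406 with it, 0 of the 10 in either.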

Additional observations from a re-analysis of the deposited data

How the results depend on the processing

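Across 5 comparisons and the listed alternatives, the calls among the 10 genes between genotypes and in the interaction stayed at 0 in every fit, leave-one-out included. The count for knockout brain against liver, 5, became 3 when genes needed a mean of at least 1 CPM (Mcm6 was lost and Cdk1 was not tested), and ranged from 3 to 6 leaving out each library; the wild-type count, 5, ranged from 4 to 5. Other settings gave 4 (no filter, or at least 1 CPM) or 6 (all 12 libraries, or adjusted p under 0.1) in the wild type, and 4 (DESeq2 size factors, library totals, or all 12 libraries) or 6 (DESeq2, or adjusted p under 0.1) in the knockout. With the replicate block the counts of the 10 genes called were 0 in brain, 0 in liver, 0 for the interaction, 5 for the wild-type tissues and 6 for the knockout tissues, where Top2a was added, beside 14496 of 18850 and 14396 of 18785 genes in those 2 tissue fits; it changed no other call among the 10. For the other lists the wild-type tissue counts, higher and lower, became 4 and 12 (mitosis), 3 and 12 (replication), 5 and 8 (G1) and 4 and 1 (inhibitors), and the knockout counts 3 and 9, 5 and 12, 4 and 7, and 4 and 1. Same-numbered libraries correlated at 0.75, 0.71 and -0.04 between genotypes in brain, where 2 of 3 numbers matched best with their own. Brain numbers 1 and 2 thus deviated together and number 3 did not, so the numbers may pair some of those libraries. Between tissues the values were 0.07, 0.03 and 0.06 in the wild type, where 3 of 3 matched best. They were 0.03, 0.07 and 0.00 in the knockout, where 1 of 3 did. Under library totals the sign turned between wild-type tissues for Ccna2 (0.28), Mcm2 (0.62), Mcm6 (0.24) and Pcna (0.54), between knockout tissues for Ccna2 (0.13), Ccnd1 (0.060), Mcm2 (0.32) and Pcna (0.47), and for the liver genotypes in Pcna (-0.037); that scaling moves all genes alike. Pcna in liver also turned, from 0.01, to -0.0024 with no filter and to -0.0026 in a fit of all 12 libraries. Leaving out each library turned the sign of effects that were not called. Between brain genotypes the ranges were -0.47 to 0.88 for Top2a, -0.36 to 0.93 for Ccnb1, -0.17 to 0.32 for Ccna2, -0.41 to 0.14 for Ccne2, -0.13 to 0.23 for Ccnd1, -0.17 to 0.19 for Mcm2 and -0.15 to 0.65 for Mcm6. Between liver genotypes they were -0.47 to 0.12 for Top2a, -0.070 to 0.59 for Cdk1, -0.15 to 0.57 for Ccna2, -0.75 to 0.18 for Ccnd1, -0.090 to 0.58 for Mcm2 and -0.10 to 0.064 for Pcna. For the interaction they were -0.89 to 0.27 for Mki67, -1.04 to 0.35 for Top2a, -0.35 to 1.18 for Ccnb1, -0.25 to 0.48 for Ccna2, -0.53 to 0.038 for Ccne2, -0.79 to 0.13 for Ccnd1, -0.11 to 0.56 for Mcm2, -0.16 to 0.73 for Mcm6 and -0.019 to 0.17 for Pcna. The summed level of the 10 genes changed from 58.9 to 79.4 CPM in wild-type brain, from 60.5 to 80.3 in knockout brain from 98.02 to 74.0 in wild-type liver and from 97.6 to 71.3 in knockout liver under library totals. The causes were not tested. Depth limits Cdk1 most, at 2 to 14 counts per brain library.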

Other observations

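Brain and liver libraries carry replicate numbers 1 to 3 in each genotype, and no label says whether a number marks a shared mouse. The 6 same-numbered pairs of brain and liver levels were compared as log2(CPM + 1). The permutations took all 720 orders over both genotypes together, so their p-values do not separate a shared number from a shared genotype. Mcm6 had Pearson's r = 0.90 (exact permutation p = 0.0194, two-sided) and Spearman's rho = 0.77 (exact permutation p = 0.103). Without the 2 pairs farthest from the brain median its r was 0.46, so the relation rests on those pairs. Mki67 had r = 0.88 (exact permutation p = 0.0361) and rho = 0.77 (exact permutation p = 0.103), and r = 0.88 without its 2 farthest pairs. Ccna2 had r = 0.81 (exact permutation p = 0.0444) and rho = 0.77 (exact permutation p = 0.103), and r = 0.24 without its 2 farthest pairs. Of the 10 genes compared, 0 passed adjustment: the smallest Benjamini-Hochberg adjusted p by exact permutation was 0.148 for r and 0.343 for rho. Ccne2 had r = -0.28 (exact permutation p = 0.632) and rho = 0.14 (exact permutation p = 0.803), and r = 0.97 without its 2 farthest pairs. Other values also moved without the 2 farthest pairs, from 0.75 to -0.16 for Top2a and from 0.23 to 0.77 for Ccnb1.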
